A study of Homo sapiens with 4 samples.

Results

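The 10 genes described here code for the receptors of bone morphogenetic proteins (BMPs) and activins, which are secreted signals of the TGF-beta family, and for a pair of proteins that modulate BMP signaling. They were taken by name from the deposited gene table, where all 10 were found among 2864 genes with values. The genes are the BMP type I receptors ACVR1, BMPR1A, BMPR1B and ACVRL1, the activin type I receptor ACVR1B, the type II receptors BMPR2, ACVR2A and ACVR2B, and the modulators BAMBI and BMPER. RNA was sequenced from 4 cultures of A375, a human melanoma cell line. The labels give the genotype as wild type. The study addressed BRAF-mutated melanoma, so that label is not read here as the state of BRAF. A375P were untreated parental cells. A375R was the resistant strain, raised by the study from A375 with rising doses of vemurafenib, an inhibitor of the BRAF kinase, which per the labels it received continuously. Whether A375R is 1 clone is not stated in the sources used here. A375+DMSO were A375 cells given the solvent for 48 h, and A375+VEM were A375 cells given 2 μM vemurafenib for 48 h. They are also called the parental, resistant, solvent and treated libraries. With 1 library for each condition, differences between libraries could not be set against a spread between replicates, and p-values are not given.

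A ligand of this family binds a pair of type I and a pair of type II receptors, both of which are serine/threonine kinases. The type II receptor phosphorylates the type I receptor, which then phosphorylates SMAD proteins that enter the nucleus. ACVR1B passes activin signals to one branch of SMADs, and the other type I receptors named here pass BMP signals to another. BAMBI resembles a type I receptor without a kinase and dampens signaling, and its gene is known to respond to BMP and TGF-beta signals. BMPER is a secreted protein that binds BMPs. BMP signaling has roles in the formation of the neural crest, from which melanocytes derive.

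Levels are given as reads and as TPM, which corrects the reads for the length of the gene and the size of the library, so that genes can be compared within a library. A gene was called higher or lower in a pair of libraries where (TPM + 0.1) differed by more than 1.5-fold and a TPM of 1 or more was reached in either library. Folds and ratios are of TPM without the 0.1, and their 95% intervals come from the reads by the exact Clopper-Pearson method and cover counting error only. The table is a part of the gene list and holds between 1891215 reads (A375+DMSO) and 2054277 reads (A375P), of which 4389 to 5711 fell on the 10 genes. In bulk RNA, fewer cells with a transcript and less of it per cell cannot be told apart. Of 5 genes of melanocytes and melanoma (APOE, BCAN, BCL2A1, BACE2 and ABCB5), 4 had a TPM of at least 1 in every library, and ABCB5 had at most 6 reads. Their summed TPM ran from 63.9 (solvent) to 118 (resistant), but the genes did not move together. In A375R, BCL2A1 (37.5 against 7.67) and APOE (21.4 against 11.3) were above A375P. BCAN (27.6 against 34.1) and BACE2 (31.8 against 47.1) were below it. Of 9 leukocyte genes, 1 reached a TPM of 1 in any library (AZU1, at 3.29 in A375+VEM), C1QA was at 0 in every library, and the summed TPM ran from 1.11 to 4.09. The 5 endothelial and muscle genes summed to between 30.6 and 94.0, mostly ACTA2, and the 5 fat and liver genes to between 78.1 and 107, mostly ALB.

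The promoters of 3 genes are shown because their levels behaved differently over the libraries. BAMBI had the widest range of levels among the members above a mean TPM of 1, BMPR1A was the type I receptor that led in A375+VEM, and ACVR1B was the type I receptor with the narrowest range. The windows are the 250 bases before the annotated start from RefSeq (GRCh38.p14), a build that differs from that of the gene table. Capitals mark matches on either strand to CAGAC (the SMAD box), GGCGCC (a site of BMP-responsive SMADs, which reads the same on both strands), CATTCC (the TEAD motif), TGACTCA (AP-1) and CATGTG (the MITF E-box). No matches overlapped.
BAMBI, chr10:28677271-28677520, plus strand: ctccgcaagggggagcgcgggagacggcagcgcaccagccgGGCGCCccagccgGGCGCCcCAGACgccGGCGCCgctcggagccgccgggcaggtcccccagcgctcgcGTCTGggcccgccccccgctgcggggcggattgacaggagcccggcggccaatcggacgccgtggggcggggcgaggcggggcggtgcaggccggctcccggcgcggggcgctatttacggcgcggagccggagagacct
BMPR1A, chr10:86755513-86755762, plus strand: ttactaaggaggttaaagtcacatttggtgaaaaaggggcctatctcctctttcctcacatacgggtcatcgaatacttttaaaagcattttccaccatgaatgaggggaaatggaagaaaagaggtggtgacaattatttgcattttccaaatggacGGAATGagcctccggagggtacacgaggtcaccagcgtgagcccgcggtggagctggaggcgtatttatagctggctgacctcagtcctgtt
ACVR1B, chr12:51951449-51951698, plus strand: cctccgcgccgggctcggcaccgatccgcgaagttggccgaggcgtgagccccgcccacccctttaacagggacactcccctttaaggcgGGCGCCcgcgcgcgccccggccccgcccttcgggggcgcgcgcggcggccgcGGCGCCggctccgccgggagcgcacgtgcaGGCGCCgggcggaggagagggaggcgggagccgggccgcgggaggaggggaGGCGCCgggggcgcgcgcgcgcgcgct

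The BAMBI window held GGCGCC at 3 places, 209, 196 and 181 bases before the start, and CAGAC at 2 places. The BMPR1A window held 1 CATTCC and no other match. ACVR1B has 2 annotated windows, of which the one shown held GGCGCC at 4 places. Across 35116 promoter windows of this length, 16.4% held GGCGCC at least once, 0.527% at least 3 times and 0.0797% at least 4 times. CAGAC was in 38.0%, CATTCC in 11.9%, CATGTG in 9.42% and TGACTCA in 4.20% of windows. The windows of BAMBI and ACVR1B were rich in G and C, at 81.2% and 82.8% against a median of 58.0% over all windows, and that of BMPR1A was at 47.2%. Of the 10 genes, 9 had a window, and ACVRL1 was not analysed here. Over their 15 windows, 6 held GGCGCC (5 genes), 1 of ACVR1 held TGACTCA and none held CATGTG. The 2 windows with the most GGCGCC belonged to a gene with a 7.29-fold range of TPM over the libraries and to one with a 1.25-fold range. The other window of ACVR1B held no GGCGCC, and a link between matches and levels was not tested.

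BAMBI had the largest differences of the receptors and modulators with a mean TPM of at least 1. Its gene is at chromosome 10, positions 28966424 to 28971868, plus strand, as the gene table gives them, for which the submitters' processing notes name hg19. Positions span whole genes, and of the 10 genes only ACVR1 lies on the minus strand. The parental library held 201 BAMBI reads, the resistant 314, the solvent 607 and the treated 1358, for a TPM of 13.6, 23.5, 44.0 and 99.2. The level was thus lowest in the untreated parental cells, and the solvent culture stood between the resistant strain and the acutely treated cells. A375R was 1.73-fold above A375P (95% interval 1.44 to 2.07), and A375+VEM was 2.25-fold above A375+DMSO (95% interval 2.05 to 2.48). The library with solvent alone was 3.24-fold above A375P (95% interval 2.75 to 3.82). Against A375+DMSO the direction for A375R was the opposite, at a ratio of 0.534 (95% interval 0.465 to 0.613). A375+VEM was 7.29-fold above A375P (95% interval 6.28 to 8.50). BAMBI ranked 181 of 1700 genes by the width of its range over the 4 libraries, which was 2.86 on the log2 scale against a median of 1.10.

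**Figure D1:**
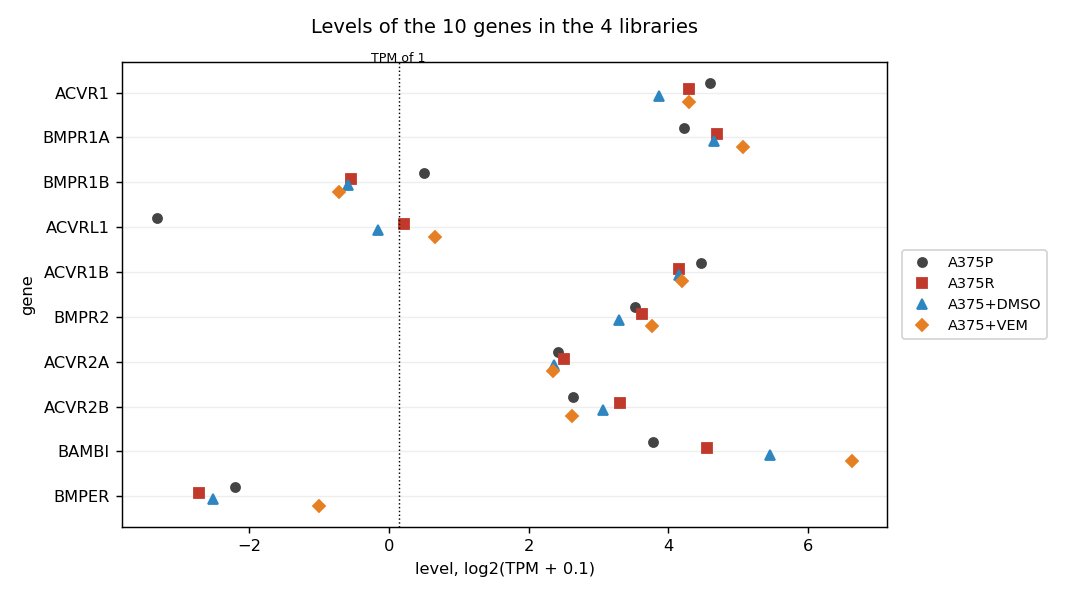
Level of each of the 10 genes as log2(TPM + 0.1) on the horizontal axis, with 1 point per library (circle A375P, square A375R, triangle A375+DMSO, diamond A375+VEM) and a dotted line at a TPM of 1. BAMBI spreads from a TPM of 13.6 to 99.2, the 4 points of ACVR2A nearly coincide, and ACVRL1 in A375P sits at the far left with 0 reads.

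BMPER, the other modulator, was close to the limit of detection. Its gene is on chromosome 7 from 33944523 to 34195484. The parental library had 5 reads, the resistant 2, the solvent 3 and the treated 16, and the TPM stayed at or below 0.400, so BMPER was under the level set for a call. A375+VEM held the most reads, with a ratio to A375+DMSO of 5.37 and a 95% interval from 1.54 to 28.8. Against A375P the ratio was 3.45 (95% interval 1.21 to 12.1). Between A375R and A375P no difference was detectable at this depth, with an interval from 0.042 to 2.70.

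The BMP type I receptors were led by ACVR1 in A375P and by BMPR1A in the other 3 libraries. ACVR1, at chromosome 2, positions 158592958 to 158732374 of the minus strand, had 736 reads in the parental library, 541 in the resistant, 413 in the solvent and 551 in the treated. Its TPM of 24.1, 19.6, 14.5 and 19.5 was highest in A375P and lowest in A375+DMSO. ACVR1 was below A375P past 1.5-fold in A375+DMSO, at a ratio of 0.601 (95% interval 0.532 to 0.679). In the 2 pairs of the study it went different ways without a call, at 0.814 in A375R against A375P (95% interval 0.727 to 0.910) and 1.34 in A375+VEM against A375+DMSO (95% interval 1.18 to 1.53).

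BMPR1A, a receptor for several BMPs, lies on chromosome 10 from 88516396 to 88684945. Its reads numbered 576 in the parental library, 723 in both the resistant and the solvent, and 958 in the treated, for a TPM of 18.6, 25.8, 25.0 and 33.4. A375R and A375+DMSO were at the same level, with A375P below them and A375+VEM above. The ratio to A375P was 1.39 in A375R (95% interval 1.24 to 1.55), 1.35 in A375+DMSO (95% interval 1.204 to 1.503) and 1.79 in A375+VEM (95% interval 1.62 to 1.99), so the last was past 1.5-fold. A375+VEM was 1.33-fold above A375+DMSO (95% interval 1.21 to 1.47), short of the threshold. Within each library, the ratio of BMPR1A to ACVR1 in TPM was 0.770 in the parental library (95% interval 0.689 to 0.860), 1.31 in the resistant (1.17 to 1.47), 1.72 in the solvent (1.52 to 1.95) and 1.71 in the treated (1.54 to 1.90). ACVR1 was thus above BMPR1A in A375P and below it in the other 3 libraries, by more than counting error. The pseudogenes BMPR1APS1 and BMPR1APS2, copies of BMPR1A, had at most 5 reads in any library.

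BMPR1B and ACVRL1 were near a TPM of 1, and A375P held the most reads of the one and none of the other. BMPR1B, a type I receptor close to BMPR1A, lies on chromosome 4 from 95679128 to 96079601. It had 67 reads in the parental library, 27 in the resistant, 27 in the solvent and 24 in the treated, a TPM of 1.32, 0.587, 0.568 and 0.508. A375P was thus above the other 3 libraries, which lay close together. The ratio to A375P was 0.446 in A375R (95% interval 0.274 to 0.707), 0.432 in A375+DMSO (0.266 to 0.684) and 0.387 in A375+VEM (0.232 to 0.625), each past 1.5-fold. With a pseudocount of 1 in place of 0.1, the log2 ratios were -0.55 in A375R and -0.56 in A375+DMSO, short of 1.5-fold, and -0.62 in A375+VEM. Between A375+VEM and A375+DMSO no difference was detectable at this depth, with a ratio of 0.895 and an interval from 0.494 to 1.61.

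ACVRL1, a receptor known above all from endothelial cells, lies on chromosome 12 from 52301202 to 52317145. No read was counted in the parental library, against 36 in the resistant, 28 in the solvent and 52 in the treated. The count of 0 allows up to 3 reads, a TPM of 0.0795, and the other libraries had a TPM of 1.06, 0.795 and 1.49. With A375P set to that limit of 3 reads and the other library taken at its measured count, A375R was at least 13.3-fold higher and A375+VEM at least 18.7-fold higher. A375+DMSO was at least 10.0-fold higher on the same reckoning, but its TPM was under the level for a call. With the counting error of both libraries, the lower ends of the 95% intervals were 10.3 for A375R, 14.7 for A375+VEM and 7.61 for A375+DMSO. A375+VEM was 1.87-fold above A375+DMSO (95% interval 1.16 to 3.08), a call that a pseudocount of 1 ended (log2 ratio 0.47), and A375R did not differ detectably from A375+DMSO at this depth (ratio 1.33, 95% interval 0.788 to 2.26). Of the endothelial genes listed, AQP1 had a TPM of 1.16 (parental), 1.24 (resistant), 1.80 (solvent) and 5.32 (treated), and ANGPT2 was at or below 0.263. Their part in the values of ACVRL1 was not tested.

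ACVR1B, the type I receptor of activin, moved least among the type I receptors. It lies on chromosome 12 from 52345451 to 52390863 and had 909 reads in the parental library, 657 in the resistant, 679 in the solvent and 696 in the treated. Its TPM was 22.1 in A375P and 17.7 to 18.2 in the other 3 libraries. The ratio to A375P was 0.800 in A375R (95% interval 0.723 to 0.886), 0.801 in A375+DMSO (0.724 to 0.885) and 0.826 in A375+VEM (0.748 to 0.913), none of them past 1.5-fold.

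The type II receptors spanned 1.11-fold (ACVR2A) to 1.61-fold (ACVR2B) over the libraries. ACVR2A, on chromosome 2 from 148602086 to 148688396, had 245 reads in the parental library, 235 in the resistant, 219 in the solvent and 217 in the treated. Its TPM of 5.02 to 5.58 was nearly the same everywhere, and its range ranked 1681 of 1700 genes from the widest. The ratio was 1.06 in A375R against A375P (95% interval 0.884 to 1.28) and 0.998 in A375+VEM against A375+DMSO (95% interval 0.823 to 1.21).

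BMPR2, the type II receptor that serves BMPs, lies on chromosome 2 from 203241050 to 203432474. The reads were 1174 (parental), 1148 (resistant), 934 (solvent) and 1290 (treated), for a TPM of 11.3, 12.3, 9.68 and 13.5. A375+VEM was 1.39-fold above A375+DMSO (95% interval 1.28 to 1.51), and A375R was at 1.08 of A375P (95% interval 0.997 to 1.18), so BMPR2 had no call.

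ACVR2B, which binds activins and several BMPs, was the type II receptor with a call. It lies on chromosome 3 from 38495790 to 38534633 with 595 reads in the parental library, 862 in the resistant, 756 in the solvent and 549 in the treated, a TPM of 6.10, 9.79, 8.31 and 6.08. A375R and A375+DMSO were the high libraries, and A375P and A375+VEM were alike at the low end. A375R was 1.60-fold above A375P (95% interval 1.44 to 1.78). A375+VEM was at 0.731 of A375+DMSO (95% interval 0.654 to 0.817), which passed 1.5-fold with edgeR's TMM scaling, at -0.59 on the log2 scale. The antisense lncRNA ACVR2B-AS1 overlaps the first 522 bases of ACVR2B on the other strand and had 38, 48, 56 and 43 reads in the same order of libraries. Whether reads were counted by strand is not given in the sources used here.

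**Figure D2:**
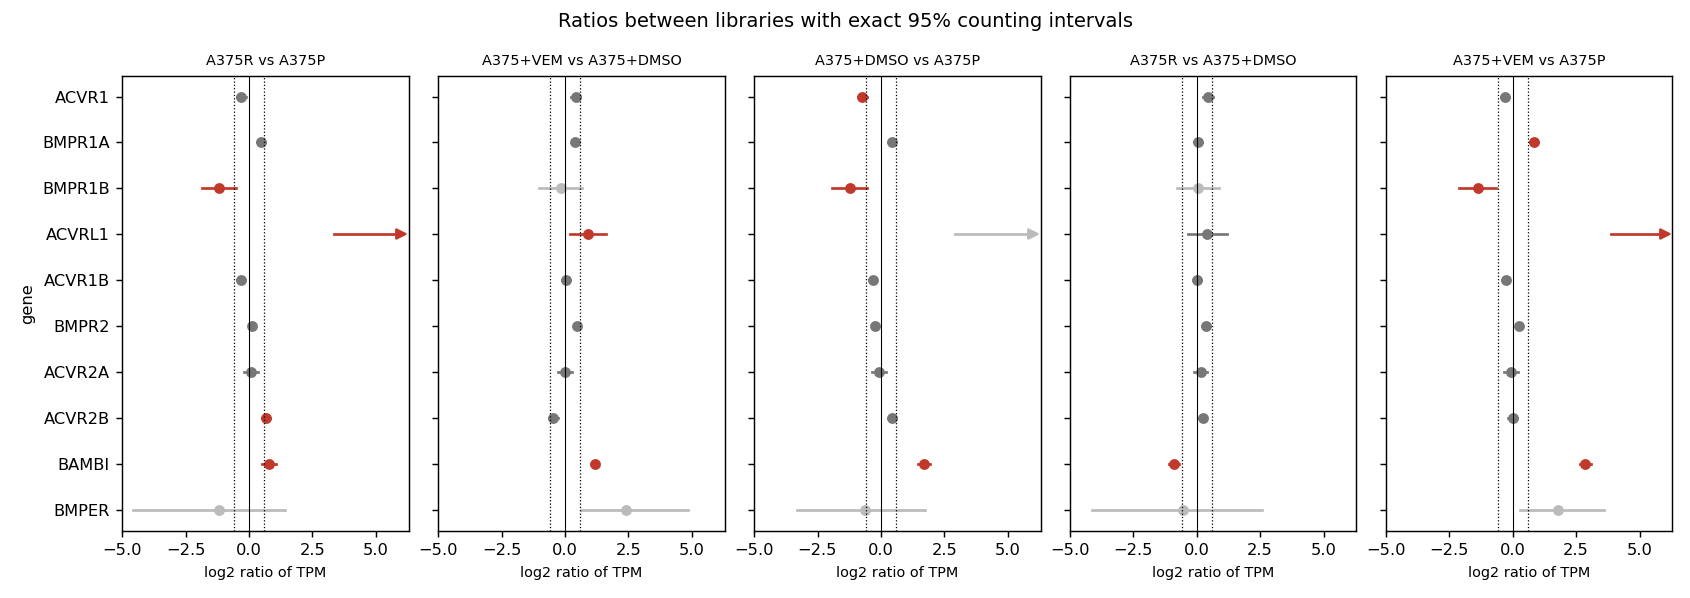
Ratio of TPM on a log2 scale (horizontal axis) for each of the 10 genes in 5 comparisons, 1 panel each, with exact 95% counting intervals as bars, dotted lines at 1.5-fold, calls in red, genes without a call in dark grey and genes under the level for a call in light grey. The arrow of ACVRL1 marks an interval with no upper end, since A375P had 0 reads. BAMBI is the gene called in all 5 panels.

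By class, the sum of the 5 type I receptors in TPM was 66.1 in the parental library, 64.8 in the resistant, 58.5 in the solvent and 73.1 in the treated. Behind these totals the make-up differed. ACVR1 gave 36.5% of the class in the parental library, 30.3% in the resistant, 24.8% in the solvent and 26.7% in the treated. BMPR1A gave 28.1%, 39.9%, 42.7% and 45.6% in the same order, and BMPR1B and ACVRL1 together never reached 3% of the class. The 3 type II receptors summed to 22.7, 27.7, 23.0 and 24.6. BMPR2 was the largest of them in each library, with 42.0% (solvent) to 54.8% (treated) of the class, and ACVR2B had 24.8% (treated) to 36.1% (solvent). Per unit of summed type I receptor TPM, BAMBI stood at 0.206 in the parental library, 0.363 in the resistant, 0.752 in the solvent and 1.36 in the treated. Set beside BMPR1A alone, the TPM ratio of BAMBI was 0.732 in the parental library (95% interval 0.620 to 0.861), 0.911 in the resistant (0.795 to 1.04), 1.76 in the solvent (1.58 to 1.96) and 2.97 in the treated (2.74 to 3.23).

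The order of levels within a library was ACVR1, ACVR1B, BMPR1A, BAMBI, BMPR2, ACVR2B, ACVR2A, BMPR1B, BMPER and ACVRL1 in A375P. Neighbours within counting error there were ACVR1 and ACVR1B (ratio 1.09, 95% interval 0.992 to 1.21), ACVR2B and ACVR2A (1.16, interval 1.00 to 1.35), and BMPER and ACVRL1. In A375R the order began with BMPR1A and BAMBI, which did not differ beyond counting error (1.10, interval 0.960 to 1.26), followed by ACVR1 and ACVR1B, which did not either (1.11, interval 0.991 to 1.25). A375+DMSO and A375+VEM both began with BAMBI and BMPR1A. ACVR1 and ACVR1B were again indistinguishable in A375+VEM (1.07, interval 0.955 to 1.20). BMPR2, ACVR2B and ACVR2A followed in this order in each library, below the leading type I receptors.

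**Figure D3:**
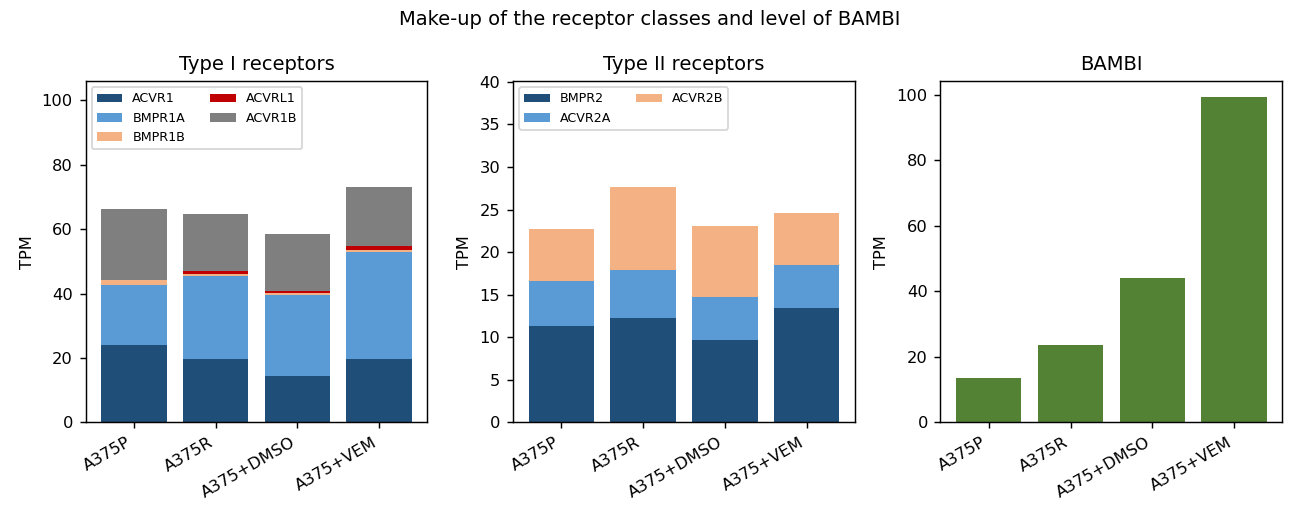
Stacked bars of TPM for the 5 type I receptors (left) and the 3 type II receptors (middle) and bars of TPM for BAMBI (right) in the 4 libraries, all axes from 0. The type I total stays between 58.5 and 73.1 while the BMPR1A part widens outside A375P, and BAMBI reaches 99.2 in A375+VEM.

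Against all genes of the table, the receptors and modulators did not stand out by number. A375R against A375P sets a resistant strain under continuous drug against untreated cells, so resistance and present exposure to the drug cannot be told apart. In this pair 9 of the 10 genes were at a level for a call. ACVRL1, ACVR2B and BAMBI were higher (3 of 9, where 26.8% of 1689 genes were higher) and BMPR1B was lower (1 of 9, where 17.5% were lower). The median log2 ratio of the 9 was 0.11, against 0.10 for all 1689 genes, and was the same with ACVRL1 at its bound. In A375+VEM against A375+DMSO, which addresses the first response to the drug, 8 genes were at that level. ACVRL1 and BAMBI were higher (2 of 8, where 26.5% of 1784 genes were higher) and none was lower, where 19.7% of genes were. Their median was 0.42, against 0.11 for all genes. With TMM scaling, computed from this part of the gene list, the median of the 8 was 0.27 and that of all genes -0.05. The balance of all calls turned, from 473 higher and 352 lower to 380 higher and 431 lower. BAMBI ranked 339 from the highest of 1689 genes in the first pair and 205 of 1784 in the second. ACVRL1 reached a TPM of 1 only in the higher library of each pair, and BMPR1B only in A375P. Both thus entered these counts only through a library in which they were high.

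**Figure D4:**
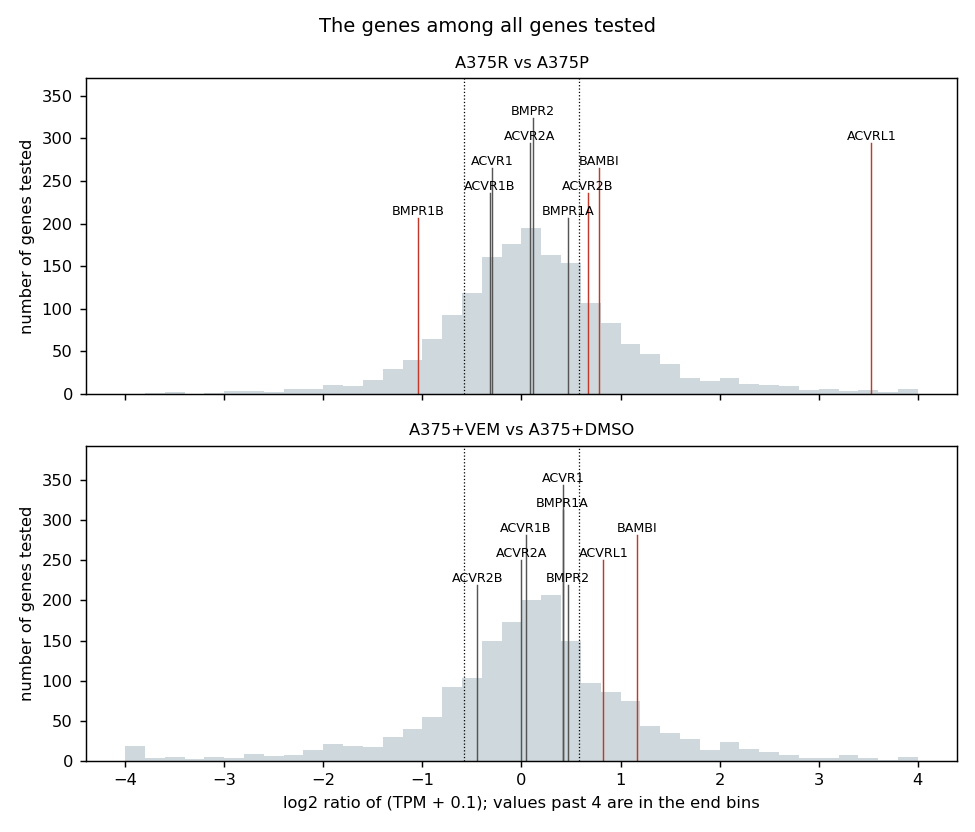
Number of genes tested (vertical axis) by log2 ratio of (TPM + 0.1) in bins of 0.2, for A375R vs A375P (top) and A375+VEM vs A375+DMSO (bottom), with the receptors and modulators at a level for a call marked by lines, red where called, and dotted lines at 1.5-fold. Most of the receptors lie in the body of the distribution, and BAMBI lies to the right of the 1.5-fold line in both panels.

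The 2 libraries without the drug also differed from each other. In A375+DMSO against A375P, BAMBI was higher (1 of 8, where 26.8% of 1720 genes were higher) and ACVR1 and BMPR1B were lower (2 of 8, where 18.9% were lower). With A375+DMSO as the control of A375R, none of 8 genes was higher, where 10.5% of 1702 genes were, and BAMBI was lower (1 of 8, where 9.99% were). With A375P as the control of A375+VEM, BMPR1A, ACVRL1 and BAMBI were higher (3 of 9, where 36.9% of 1782 genes were) and BMPR1B was lower (1 of 9, where 25.3% were). For this pair TMM scaling gave 539 genes higher and 578 lower, in place of 657 and 450. These comparisons share libraries and are not independent. The calls of ACVRL1, ACVR2B and BMPR1B in A375R were made against A375P and not against A375+DMSO. Against A375+DMSO the ratio was 1.33 for ACVRL1 (95% interval 0.788 to 2.26) and 1.18 for ACVR2B (95% interval 1.07 to 1.30). For BMPR1B it was 1.03 (95% interval 0.583 to 1.83), in a pair where BMPR1B was under the level for a call. Where ACVRL1 and BMPR1B were counted, it was through the library in which they were high.

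Other genes of the family were described from a list of 25, of which 23 were in the table. The list was drawn from an alphabetical stretch of names that the table is known to hold. Family genes with names outside that stretch were not described, so the list is not the whole family. Of 11 ligands, 7 were at a level for a call in A375+VEM against A375+DMSO. BMP2, BMP4, BMP7 and BMP8B were lower there (4 of 7, where 19.7% of all genes were lower) and none was higher, where 26.5% were. With A375P as the control of A375+VEM, 5 of 6 ligands were lower, where 25.3% of all genes were. None was higher, where 36.9% were. BMP2, BMP4 and BMP8B were among those lower, at ratios of 0.275, 0.408 and 0.542. So were AMH (the ligand of AMHR2) at 0.379 and BMP8A at 0.654. BMP7 was not, with 17 reads in A375+VEM and 12 in A375P, under the level for a call. It reached that level only through A375+DMSO, whose TPM of 2.64 was 7.59-fold above A375P. BMP4 also entered the count against A375+DMSO only through A375+DMSO, with a TPM of 2.77 there and 0.831 in A375+VEM. In A375+DMSO against A375P, BMP2 and AMH were lower (2 of 7 ligands, where 18.9% of all genes were), at 0.450 and 0.325. BMP7 was the 1 of 7 that was higher there, where 26.8% of all genes were. In A375R against A375P, BMP2 and BMP6 were higher (2 of 6 ligands, where 26.8% of all genes were higher). AMH and BMP8A were lower (2 of 6, where 17.5% were lower). The other receptors ACVR1C and AMHR2 were under a TPM of 1 in every library.

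ATOH8, a transcription factor induced by BMP signals, had 13 reads in the parental library, 9 in the resistant, 284 in the solvent and 898 in the treated. Like BAMBI it was highest in A375+VEM and next in A375+DMSO. It was 3.18-fold above A375+DMSO in A375+VEM (95% interval 2.78 to 3.65) and 23.4-fold above A375P in A375+DMSO (95% interval 13.5 to 44.5). Unlike BAMBI, it was no higher in A375R than in A375P, with a TPM of 0.198 and 0.259. BMP1, a protease that cleaves the BMP antagonist chordin and procollagens, had 504 (parental), 610 (resistant), 636 (solvent) and 2072 (treated) reads. It was 3.28-fold above A375+DMSO in A375+VEM, at a TPM of 61.7 against 18.8. BGN, a matrix proteoglycan that binds BMPs, had 444, 754, 1456 and 879 reads in the same order and was highest in A375+DMSO. Of the other genes listed, BMP2K and APPL1 had no call in either pair of the study.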

How the data were processed

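A375 cells in 4 conditions gave 1 RNA library each. The authors deposited, per gene, a read count without normalization and a TPM, in which the count is corrected for gene length and library total. The submitters' processing notes name HISAT2, HISAT, TopHat2, Bowtie2 and hg19; the counting program and strand setting are not given in the sources used here. The table covers part of the genes: 2864 have values, and 1 row without values was left out. Its column sums are therefore not library depths.

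Ratios of (TPM + 0.1) past 1.5-fold were called where either library of a pair reached a TPM of 1. With 1 library per condition no test was run. Intervals at 95% are Clopper-Pearson intervals on the reads, scaled by the library constants behind the TPM, and a count of 0 was set to 3 reads for bounds. All 10 genes and the family list were named; the members and lists were chosen with earlier results of these data known. Genes of like pattern were those with the smallest largest difference in centred log2(TPM + 0.1) from each gene called in both pairs of the study. The ratio step and the intervals were tested on simulated counts with Poisson error only. That does not address variation between cultures. Alternatives were pseudocounts of 1 and 0.01, no filter, a TPM of at least 5, a 2-fold threshold, a call on the whole interval, median-of-ratios size factors and edgeR's TMM factors. The size factors and TMM factors were computed from this part of the genes, not from whole libraries. Python 3.11.15, numpy 2.4.6, pandas 2.3.3, scipy 1.17.1, matplotlib 3.10.9, R 4.3.3 and edgeR 4.0.16 were used.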

Additional observations from a re-analysis of the deposited data

Results flagged for a closer look

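Genes of the family that passed 1.5-fold in opposite directions in the 2 pairs of the study were looked for. Among the 10 receptors and modulators there was none on the TPM scale. With edgeR's TMM scaling ACVR2B passed in opposite directions, at a log2 ratio of 0.60 for A375R against A375P and -0.59 for A375+VEM against A375+DMSO, both close to the threshold. BMP2, a ligand of BMPR1A, had a log2 ratio of 1.28 for A375R against A375P. For A375+VEM against A375+DMSO its log2 ratio was -0.70. BGN was at 0.91 and -0.72. Whether the pairs differ could not be and was not tested for either gene, since each library stands alone. For BGN the direction in A375R depends on the control, with a log2 ratio of -0.90 against A375+DMSO.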

How the results depend on the processing

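The number of genes called, out of 10, was recomputed under 8 alternatives in each of the 5 comparisons. In A375R against A375P, 4 genes were called, and 2 at a TPM of at least 5, 2 at a threshold of 2-fold and 1 (ACVRL1) where the whole interval had to pass 1.5-fold. A pseudocount of 1 left 3, without BMPR1B, the one lower call, and ended the call of BMPR1B in A375+DMSO against A375P too. In A375+VEM against A375+DMSO, 2 were called, and 1 (BAMBI) with a pseudocount of 1, at a TPM of at least 5, at 2-fold and with the whole interval. In A375+DMSO against A375P, 3 were called, and 1 with the whole interval. In A375R against A375+DMSO, 1 was called, and 0 at 2-fold. In A375+VEM against A375P, 4 were called, and 2 at a TPM of at least 5. The other 30 of 40 counts were within 1.5 times of the first. The alternatives that lowered the counts are stricter by construction. The pseudocount of 1 is so too, since it shrinks every ratio, most of all for genes of low level. No called gene turned direction under either pseudocount or either scaling. ACVR1B, without a call, changed sign under both scalings in A375+VEM against A375+DMSO, from 0.05 to -0.06 and -0.10, and in A375R against A375+DMSO around 0. Shares within a library do not depend on the scaling between libraries. No paired analysis was possible because each condition had 1 library. No library could be left out for the same reason, and the counts of ACVRL1, BMPR1B and BMPER limit what could be detected for them.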

Other observations

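Among 1699 other genes whose mean TPM reached 1, the 3 whose pattern over the 4 libraries was most like that of BAMBI were ADGRL3, AMT and ADAM23. Their largest differences from BAMBI in centred log2 level were 0.15, 0.17 and 0.19. ADAM23, a membrane protein of the ADAM family without protease activity, had a TPM of 3.09 (A375P), 5.75 (A375R), 12.3 (A375+DMSO) and 29.8 in the A375+VEM library. AMT, an enzyme of glycine breakdown, had 1.06, 2.29, 4.26 and 9.66 in the same order. The 3 genes most like ACVRL1 were APOBEC3H, AKR1C3 and CACNB3, with largest differences of 0.22, 0.44 and 0.45. ACVRL1 had 0 reads in A375P, so its pattern, and with it this likeness, depends on the 0.1 added to the TPM. Its log2 ratio of A375R to A375P was 3.53 with 0.1, 1.04 with 1 and 6.74 with 0.01 added. CACNB3, a calcium channel subunit, had a TPM of 4.73 in A375P and 32.0 to 48.0 in the other libraries. With 4 libraries such a likeness is a description.

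ACVR1C, an activin and nodal receptor of type I, was under a TPM of 1 but uneven in reads, with 2 in the parental library, 13 in the resistant, 21 in the solvent and 3 in the treated. The treated library was at 0.144 of the solvent library (95% interval 0.0275 to 0.482). AMHR2 had at most 2 reads, BMP10 and BMPR1B-AS1 were at 0 in every library, and BMP3, BMP15, BMP5 and ASPN had at most 9.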
